A study of Mus musculus with 18 samples.

Results

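The collagen chain genes were examined in control and hypothyroid livers of male mouse pups. Members were all genes whose current symbol is Col, a type number, the letter a and a chain number. By accession, probes of the mRNA arrays were matched to 38 such genes, among 16535 genes that could be matched to a symbol. Of 41174 probes 23374 were given a symbol, so the arrays may hold further members among the rest. Of the 38 genes, 11 code for chains of fibrillar collagens (types I, II, III, V, XI, XXIV and XXVII), 8 for chains of basement membrane collagens (types IV, XV and XVIII) and 19 for chains of all other types. RefSeq lists 44 genes of this form, and for 6 of them, Col6a3, Col6a4, Col6a5, Col12a1, Col20a1 and Col22a1, no probe was matched.

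Collagens are the main structural proteins of the extracellular matrix, and each molecule is wound from a trio of alpha chains that come from 1 gene or several. Fibrillar collagens are secreted as procollagens, trimmed at both ends and packed into fibrils, while type IV collagen forms the sheet-like network of basement membranes. In liver the hepatic stellate cell and the portal fibroblast are known as the main makers of fibrillar collagen, sinusoidal endothelium adds type IV collagen, and hepatocytes are known to make type XVIII collagen, the precursor of endostatin. The samples were whole liver, in which fewer cells of a type and less RNA per cell cannot be told apart.

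The array samples were livers of C57BL/6 male pups at PND 15, 5 control and 5 hypothyroid, with 1 pup from a litter. Hypothyroid pups were nursed by dams whose 1% sugar water held 0.05% MMI (methimazole, which blocks thyroid hormone synthesis) and 1% perchlorate (which blocks iodide uptake) from PND 12, and control dams had sugar water alone. By the methods, pups of both groups received an injection of PBS 4 hours before they were killed. Each liver was hybridized against universal mouse reference RNA, a commercial mixture, so every array value below is a log2 ratio of liver to reference (called the ratio), and a ratio states how a gene stands in liver against that mixture, not how abundant it is against another gene. TLDA cards, which read 1 miRNA in each well by PCR, were run on 4 control and 4 hypothyroid livers of the same strain, sex and treatment.

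Not all arrays behaved as labelled. The labels and methods put liver in Cy5 on every array, but control 832 and hypothyroid 576, both on slide 141, ran opposite, over all probes, to the mean of the remaining slides (r = -0.97 and r = -0.98). Their channels were exchanged here, which departs from the stated dyes, so the direction on that slide is not settled by the labels. Control 616 had a correlation of r = 0.88 with that mean, against 0.97 to 0.99 for the other 7 arrays, and its ratios were drawn towards 0. Among all probes with a mean ratio below -1 on the other arrays, control 616 was the highest array for 94.2%. It was the highest for 8 of 8 collagen genes with such a ratio and the lowest for 4 of 4 with a mean ratio above 1, where it was the lowest for 69.1% of all probes. Changes of collagens are therefore given with and without control 616. Between 75.9% and 85.4% of probes were above the background limit in the liver channel.

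Known thyroid hormone targets were read as a check of the treatment. Dio1, which codes for the deiodinase that turns T4 into T3, had a ratio of 5.23 ± 0.73 (SD, n = 5) in controls and 4.29 ± 0.50 (SD, n = 5) in hypothyroid liver. Thrsp, a regulator of fat synthesis, went from 1.88 ± 0.57 to 0.72 ± 0.52, and Me1, which codes for malic enzyme, from -1.21 ± 0.18 to -1.69 ± 0.17. By limma the adjusted p values were 0.604, 0.347 and 0.274, so none of the 3 passed the test. Without control 616 the groups of all 3 genes did not overlap (1.41% of all probes were lower without overlap), and the adjusted p values were 0.0613, 0.0764 and 0.221.

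The sequences below are of the members on which the comparison turns. RefSeq (GRCm38.p6) gave a start site for 31 of the 38 genes, and the 250 bases before it are shown for Col5a3 (chr9:20815068-20815317, minus strand), for its type V partner Col5a1 (chr2:27886175-27886424, plus strand) and for the type I chain Col1a2 (chr6:4505368-4505617, plus strand), 5′ to 3′. Capitals mark matches on either strand to CCAAT, the box bound by NF-Y, and to GGGCGG, the GC box bound by Sp1.
Col5a3: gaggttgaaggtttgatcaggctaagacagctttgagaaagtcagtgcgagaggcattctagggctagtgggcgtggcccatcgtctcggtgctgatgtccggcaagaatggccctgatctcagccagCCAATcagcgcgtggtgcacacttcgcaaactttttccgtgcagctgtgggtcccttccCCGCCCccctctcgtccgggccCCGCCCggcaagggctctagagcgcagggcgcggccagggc
Col5a1: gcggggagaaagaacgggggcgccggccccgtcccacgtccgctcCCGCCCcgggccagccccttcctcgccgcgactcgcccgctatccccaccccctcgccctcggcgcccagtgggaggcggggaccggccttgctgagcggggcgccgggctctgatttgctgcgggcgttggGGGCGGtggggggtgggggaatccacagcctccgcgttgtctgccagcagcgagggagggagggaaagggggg
Col1a2: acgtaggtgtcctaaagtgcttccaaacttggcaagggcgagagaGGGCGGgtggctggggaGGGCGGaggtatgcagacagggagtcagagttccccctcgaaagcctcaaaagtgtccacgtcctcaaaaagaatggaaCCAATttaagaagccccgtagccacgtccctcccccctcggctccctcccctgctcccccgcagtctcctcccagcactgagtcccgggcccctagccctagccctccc
TATAAA and AGGTCA, the half-site of thyroid hormone receptors, were searched for in the same way, and no match was in these 3 windows. Matches did not overlap each other. CCAAT was in the windows of Col5a3 and Col1a2, and GGGCGG was in all 3. Of all 32851 RefSeq windows of this length, 33.8% held CCAAT, 32.7% GGGCGG, 12.4% TATAAA and 14% AGGTCA. Of the 31 collagen genes, 12 held CCAAT, 19 GGGCGG, 5 TATAAA and 6 AGGTCA. The G and C content was 62.8% before Col5a3, 76.4% before Col5a1 and 62% before Col1a2, against a median of 52.4% over all windows.

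Col4a1 and Col4a2, whose products join in the main type IV collagen, lie head to head. Their first transcribed bases in RefSeq are 21 bases apart, on chr8:11312805-11312826. Col4a2 runs from the first of these bases on the plus strand and Col4a1 from the last on the minus strand. The stretch that holds both starts thus lies in both transcripts. It is shown on the plus strand because the pair is compared below.
Col4a1 and Col4a2: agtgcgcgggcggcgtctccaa

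The level of each collagen in control liver was read against the reference. Of 36 genes with a probe above background, 15 were above the reference on every control array that gave a value and 15 below it on every one, beside 34.8% and 31% of all probes. Chains of basement membrane collagens were above on every control array in 6 of 8 genes, fibrillar chains in 4 of 11 and other chains in 5 of 17, and the difference between classes was not tested. The counts above the reference were the same without control 832. With its dyes as labelled 0 genes were above on every control array and 0 below, beside 2.7% and 2.12% of all probes. Turning the sign of control 832 takes out every gene that lay on the same side on all controls. This setting therefore cannot show how the collagens stand against the reference. Highest was Col14a1, a fibril-associated chain that sits on the surface of collagen fibrils, with a control ratio of 5.00 ± 0.45 (SD, n = 5). Col18a1 followed at 3.67 ± 0.44, and Col13a1, a transmembrane chain found at cell adhesion sites, at 3.26 ± 0.36. The 2 highest neighbours in this order, Col14a1 and Col18a1, did not overlap on the control arrays, while Col18a1 and Col13a1 did through control 616 alone. At the other end were Col8a1, a short chain of vessel walls, at -3.16 ± 0.69, Col16a1 and Col1a2 at -2.17 ± 0.60 and -2.17 ± 0.98, and Col1a1 at -2.16 ± 1.01, and these overlapped one another. Without control 616 Col8a1 lay below the other 3 on every control array, and the other 3 still overlapped. Large SDs at this end came with control 616. Without it the control ratio of Col1a1 was -2.60 ± 0.32 and that of Col1a2 was -2.60 ± 0.16 (SD, n = 4). Col10a1 and Col6a6 had no probe above background in 4 of the 5 arrays of either group and were not tested.

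**Figure D1:**
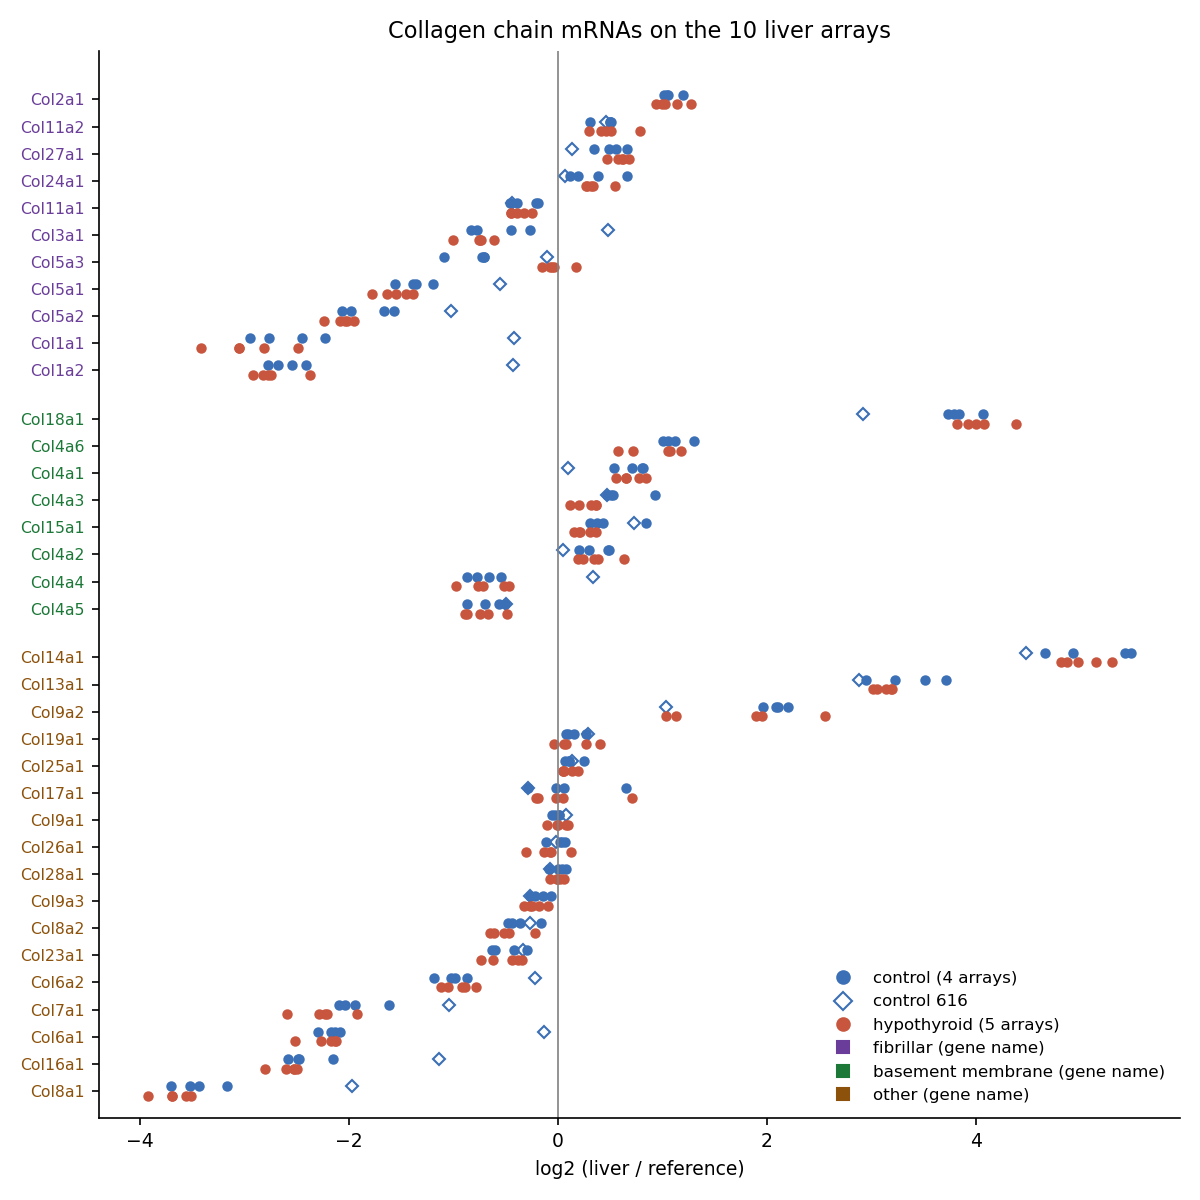
Log2 ratio of liver to reference (horizontal axis) for the 36 collagen genes tested, by class (colour of the gene name); each point is 1 array, with control arrays in the upper row of a gene and hypothyroid arrays in the lower. Control 616 (open diamond) lies nearest to 0 among the controls for the genes with the most extreme ratios, such as Col1a1 and Col14a1, and Col5a3 is the gene whose hypothyroid points lie above its other 4 control points.

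The main comparison asked which collagen chains differ between hypothyroid and control liver. By its brighter probe Col5a3, the alpha3 chain of type V collagen, was higher in hypothyroid liver by 0.64 (SE 0.15) and had the lowest p among the collagens, and it passed the test only without control 616. Its second probe changed by 0.03 (SE 0.06). Among the other fibrillar chains made in liver, Col1a1, Col1a2, Col3a1, Col5a1 and Col5a2 had mean changes from -0.80 to -0.35, but these drew much of their size from control 616 and none passed the test. Adjusted over all 32056 probes, 0 of 36 genes had a limma p below 0.05, as against 0.00624% of all probes (2 probes). By an Fs test written anew here 0 genes had an adjusted p below 0.05. The study itself, with its own normalization and Fs test, lists Col5a3 as significantly higher. At an unadjusted p below 0.05, 1 gene was higher (Col5a3, beside 3.34% of all probes) and 4 were lower (Col5a2, Col15a1, Col4a3 and Col7a1, beside 4.08% of all probes). Groups did not overlap for 1 gene, Col4a3, which was lower (1.01% of all probes were lower without overlap, and 1.07% higher).

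Mean changes were below 0 for 25 of the 36 genes, beside 17235 of all 32056 probes tested. The median over the genes was -0.09, against -0.01 over all probes. By class the median was -0.03 for fibrillar, -0.14 for basement membrane and -0.09 for other chains. Without control 616 these medians were -0.06, -0.05 and -0.07, and 27 genes were below 0, beside 16262 of the 32056 probes. With control 616 left out, Col5a3 passed at an adjusted p below 0.05, as did 0.0936% of all probes (30 probes). At an unadjusted p below 0.05 there were then again 1 gene higher and 4 lower, beside 3.43% and 3.92% of all probes. Slide 141 bears on these counts as well: 1 gene was higher and 2 were lower without the slide, and 0 and 0 with its dyes as labelled. Shares of all probes are not given for these settings of the slide.

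**Figure D2:**
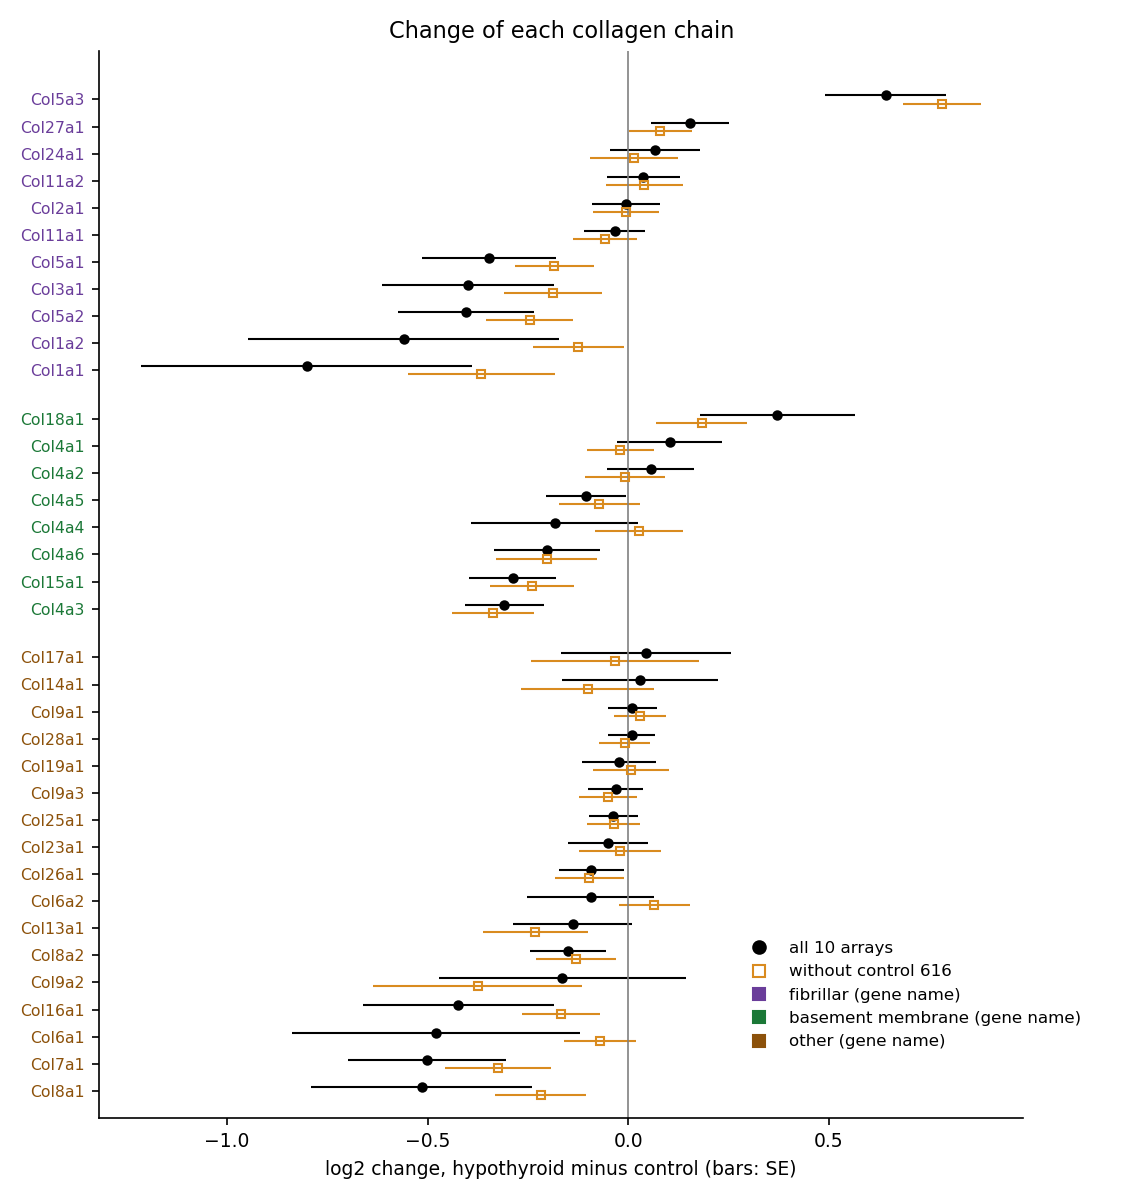
Log2 change of each collagen gene, hypothyroid minus control (horizontal axis), with its limma SE (bars), over all 10 arrays (black circles) and without control 616 (open squares), by class. Col5a3 stands at 0.64 and 0.78, and the chains of type I, III, VI, VIII and XVI move towards 0 when control 616 is left out.

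Type V collagen is a minor fibrillar collagen that is built into type I fibrils and is known to start them and to limit their width. Its 3 chains did not move together. Col5a3, which codes for the alpha3 chain, had ratios of -0.71, -0.71, -1.09, -0.11 and -0.73 on control arrays 881, 832, 522, 616 and 391. In hypothyroid liver the ratios were -0.05, -0.04, 0.18, -0.15 and -0.07 on arrays 891, 576, 311, 723 and 626. All 5 hypothyroid values lay above 4 of the control values, and control 616 lay among them. The change was 0.64 (SE 0.15, limma unadjusted p = 0.00137, adjusted p = 0.296) over all arrays and 0.78 (SE 0.10, limma adjusted p = 0.017) without control 616, where the groups did not overlap (1.49% of all probes were higher without overlap, and 1.41% lower). On the slides that held both groups, Col5a3 was higher in the hypothyroid pup by 0.66 on slide 139, 0.67 on slide 141 and 1.27 on slide 136, and by 0.03 on slide 100, where control 616 lies. With the dyes of slide 141 as labelled the change was 0.37 (limma unadjusted p = 0.25), and without that slide it was 0.63 (limma unadjusted p = 0.00841). With both control 616 and slide 141 left out it was 0.82, and the limma adjusted p was 0.0968. The second Col5a3 probe was dimmer, with a mean log2 signal of 6.40 against 9.26. It was still well above background on every array, in liver and in reference. Its change was 0.03 (SE 0.06), and 0.02 (SE 0.07) without control 616, so it did not show the change of the brighter probe. The mean of both probes changed by 0.34.

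For Col5a1, the chain found in nearly all type V molecules, the control ratios were -1.36, -1.19, -1.39, -0.56 and -1.56 in the same order of arrays, and the hypothyroid ratios -1.63, -1.55, -1.39, -1.45 and -1.78. The groups overlapped, and the highest value was that of control 616. Its change was -0.35 (SE 0.17, limma adjusted p = 0.685), or -0.18 without control 616. Col5a2, the usual partner of Col5a1, had control ratios of -2.07, -1.57, -1.98, -1.03 and -1.66 and hypothyroid ratios of -2.04, -1.95, -2.02, -2.09 and -2.23. Controls 881 and 522 lay among the hypothyroid values. It changed by -0.41 (SE 0.17, limma unadjusted p = 0.0364, adjusted p = 0.654), and by -0.25 without control 616.

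Since each array reads all these probes at once, the ratio of Col5a3 was also set against that of each of the 5 chains of types I, III and V within the array, a comparison chosen after the values were seen. The ratio of Col5a3 minus that of Col5a1 was between 0.30 and 0.83 on the 5 control arrays, control 616 included, and between 1.30 and 1.71 on the 5 hypothyroid arrays. Against Col5a2 it was between 0.86 and 1.36 in controls and between 1.91 and 2.19 in hypothyroid liver. The groups did not overlap for any of the 5 chains, and the mean difference between groups was 0.99 for Col5a1, 1.05 for Col5a2, 1.04 for Col3a1, 1.20 for Col1a2 and 1.44 for Col1a1. Without control 616 the differences were between 0.91 and 1.15, without slide 141 between 0.98 and 1.43, and with the dyes of slide 141 as labelled between 0.58 and 0.87. Without control 616, or without slide 141, the groups again did not overlap. With the dyes of slide 141 as labelled, the value of hypothyroid 576 changes sign and falls below the controls, so the groups then overlapped. All 5 comparisons share the values of Col5a3, and the share of other pairs of probes without overlap was not computed. No test is given, since Col5a3 was chosen from these same values.

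**Figure D3:**
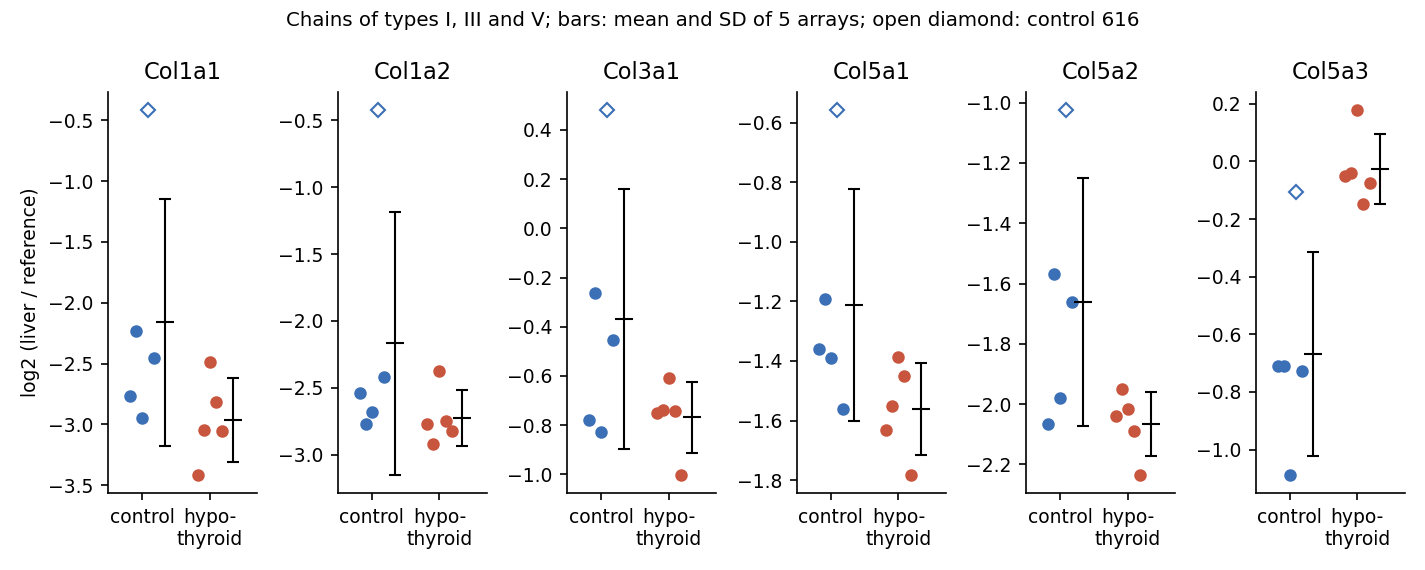
Log2 ratio of liver to reference (vertical axes, scaled separately for each gene) for the chains of types I, III and V on the 5 control and 5 hypothyroid arrays; bars give the mean and SD of 5 arrays. The open diamond, control 616, is the highest control point in each panel, and only for Col5a3 do the hypothyroid points lie above the other 4 control points.

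Types I and III are the bulk fibrillar collagens of liver connective tissue. Col1a1 codes for the chain present as a pair in each type I molecule. Its ratios were -2.76, -2.23, -2.94, -0.42 and -2.45 on control arrays 881, 832, 522, 616 and 391, and -3.42, -3.05, -2.49, -2.82 and -3.05 on hypothyroid arrays 891, 576, 311, 723 and 626. The 4 controls other than 616 overlapped the hypothyroid values. The change was -0.80 (SE 0.41, limma adjusted p = 0.708), and -0.37 without control 616 (limma unadjusted p = 0.0692). Within slides it was -0.65 on slide 139, -0.82 on slide 141, 0.46 on slide 136 and -2.63 on slide 100, so the direction was not the same on each.

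Col1a2, the partner chain, had control ratios of -2.54, -2.77, -2.68, -0.43 and -2.42 and hypothyroid ratios of -2.77, -2.92, -2.37, -2.75 and -2.82. Apart from control 616 the groups lay over each other. Its change was -0.56 (SE 0.39, limma adjusted p = 0.747) with control 616 and -0.12 without. For Col3a1, the only chain of type III collagen, the control ratios were -0.78, -0.26, -0.83, 0.48 and -0.45 and the hypothyroid ratios -0.75, -0.74, -0.61, -0.74 and -1.002. Controls 881 and 522 were within the hypothyroid range. It changed by -0.40 (SE 0.21, limma adjusted p = 0.712), and by -0.19 without control 616.

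Several genes had more than 1 probe. Of 16 such genes with over 1 tested probe, all tested probes of 11 changed in the same direction. The probes differed in direction for Col4a1, Col4a2, Col11a2, Col13a1 and Col25a1. A dim second probe of Col3a1 (mean log2 signal 7.03) was lower in every hypothyroid liver than in any control, from a mean ratio of -0.23 to -0.55, by -0.32 (SE 0.08, limma unadjusted p = 0.00164, adjusted p = 0.308). The bright Col3a1 probe (mean log2 signal 14.2) did not separate the groups. Of all 53 collagen probes tested 2 were lower without overlap, this dim Col3a1 probe and a Col4a3 probe, beside 1.01% of all probes. For Col1a1 the other probes changed by -0.45 (SE 0.27) and -0.26 (SE 0.10, limma unadjusted p = 0.0283, adjusted p = 0.631), the last by as much without control 616. The probes of Col2a1, the chain of cartilage type II collagen, had the same direction but differed in size. The brighter changed by -0.01, with no value on control 616, and the second by -0.38 (SE 0.14, limma unadjusted p = 0.0181, adjusted p = 0.598).

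The remaining fibrillar chains, Col11a1 and Col11a2 of cartilage type XI and Col24a1 and Col27a1, changed by -0.03, 0.04, 0.07 and 0.15, with limma adjusted p values of 0.925, 0.93, 0.895 and 0.732.

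Among basement membrane chains the pair Col4a1 and Col4a2, which share the head-to-head start printed above, changed by 0.10 (SE 0.13) and 0.06 (SE 0.11), with limma adjusted p values of 0.855 and 0.911. Col4a1 had control ratios of 0.71, 0.81, 0.81, 0.10 and 0.53 and hypothyroid ratios of 0.77, 0.56, 0.85, 0.65 and 0.65. Those of Col4a2 were 0.20, 0.49, 0.48, 0.05 and 0.30 in controls and 0.25, 0.38, 0.63, 0.35 and 0.20 in hypothyroid liver. In both genes control 616 was the lowest array, and the other controls lay among the hypothyroid values except control 391 for Col4a1, which was just below them. Without control 616 both changes were slightly below 0, at -0.02 and -0.01. The second probes of Col4a1 and Col4a2, with mean log2 signals of 9.79 and 9.14, went the other way over all arrays. They changed by -0.06 (SE 0.10) and -0.07 (SE 0.15).

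Col4a3, a chain of the type IV network of kidney and lung, was lower in every hypothyroid liver than in any control. The control ratios were 0.53, 0.51, 0.93, 0.47 and 0.47 and the hypothyroid ratios 0.37, 0.37, 0.12, 0.20 and 0.32. The change was -0.31 (SE 0.10, limma unadjusted p = 0.00995, adjusted p = 0.523). Its signal was close to the background, with a mean log2 signal of 6.40, and 1 hypothyroid array was not well above background. The reference, the other side of the ratio, was well above background on only 3 of the 10 arrays. The second Col4a3 probe, dimmer at 6.17, changed by -0.20 (SE 0.10, limma unadjusted p = 0.0582), and its groups overlapped. Col4a4 and Col4a5 code for partner chains of Col4a3, and Col4a6 for a chain of another type IV network. They changed by -0.18, -0.11 and -0.20, and their limma adjusted p values were 0.833, 0.80 and 0.737. Col4a6 had no value on control 616.

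Type XV and XVIII collagens hang on basement membranes and carry heparan or chondroitin sulphate. Col15a1 had control ratios of 0.43, 0.85, 0.30, 0.73 and 0.38 and hypothyroid ratios of 0.31, 0.37, 0.21, 0.20 and 0.15. Control 522 lay within the hypothyroid range and control 391 just above it. It changed by -0.29 (SE 0.11, limma unadjusted p = 0.0219, adjusted p = 0.612), again at a low mean log2 signal of 6.35. The reference was well above background for Col15a1 on only 2 of the 10 arrays. Col18a1, far above the reference, had control ratios of 3.84, 3.73, 4.07, 2.92 and 3.79 and hypothyroid ratios of 4.00, 3.82, 4.38, 4.08 and 3.93. The hypothyroid values were in the upper part of the range, and the groups overlapped at controls 881 and 522. The change was 0.37 (SE 0.19, limma adjusted p = 0.712), and 0.18 without control 616. A second probe of Col18a1 changed by 0.45 (SE 0.24).

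The other 17 chains tested held 13 with a mean change below 0, beside 17235 of all 32056 probes. Of these chains 1, Col7a1, had an unadjusted p below 0.05. Col7a1 codes for type VII collagen, the anchoring fibril that ties epithelium to the matrix. Its ratios were -2.09, -1.62, -2.04, -1.04 and -1.94 in controls and -1.92, -2.29, -2.21, -2.23 and -2.59 in hypothyroid liver. Hypothyroid 891 lay among the controls. Its change was -0.50 (SE 0.20, limma unadjusted p = 0.0269, adjusted p = 0.628), and -0.33 without control 616.

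Type VI collagen forms beaded filaments around cells. Col6a1 had control ratios of -2.29, -2.09, -2.18, -0.13 and -2.13 and hypothyroid ratios of -2.27, -2.17, -2.13, -2.14 and -2.51. With control 616 the change was -0.48 (SE 0.36, limma adjusted p = 0.763) and without it -0.07. Col6a2, which codes for its partner, went the other way when control 616 was left out, from -0.09 (SE 0.16, limma adjusted p = 0.895) to 0.06. Its control ratios were -0.98, -0.87, -1.18, -0.22 and -1.02 and its hypothyroid ratios -0.91, -0.89, -1.05, -0.78 and -1.12. For both genes the hypothyroid values lay over the controls other than 616.

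Col14a1, the highest of all collagens against the reference, had control ratios of 5.43, 5.48, 4.93, 4.48 and 4.66 and hypothyroid ratios of 5.30, 5.15, 4.98, 4.88 and 4.82. The groups overlapped throughout. The change was 0.03 (SE 0.19, limma adjusted p = 0.98), and -0.10 without control 616. Col8a1 and Col16a1, the chains lowest against the reference beside type I, changed by -0.52 (SE 0.28) and -0.42 (SE 0.24), and by -0.22 and -0.17 without control 616. In Col9a2, a fibril-associated chain known from cartilage, the ratio was 1.88 ± 0.48 in controls and 1.71 ± 0.63 in hypothyroid liver (SD, n = 5), and the 2 lowest hypothyroid arrays, 576 and 723, were at 1.03 and 1.13. Control 616 was also at 1.03, while the other controls were between 1.96 and 2.20. The change was -0.16 (SE 0.31, limma adjusted p = 0.906), and -0.38 (SE 0.26) without control 616. The remaining chains of this class had changes between -0.15 and 0.04.

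Collagen chains need enzymes and chaperones to mature. Of 30 genes fixed for this list 25 were tested, and 3 were lower and 1 was higher at an unadjusted p below 0.05 (beside 4.08% and 3.34% of all probes), with 0 at an adjusted p below 0.05 (limma). Groups did not overlap for 2 lower genes and 1 higher gene, beside 1.01% and 1.07% of all probes. The median change was -0.15, and -0.09 without control 616. Adamts2, the protease that removes the amino end of procollagens I and III, had control ratios of 0.21, 0.46, 0.11, 0.49 and 0.08 and hypothyroid ratios of -0.24, -0.05, -0.10, -0.19 and -0.53. All hypothyroid values were below all controls. Its change was -0.50 (SE 0.11, limma adjusted p = 0.286), and -0.44 without control 616. For Pcolce2, which enhances removal of the carboxyl end, the ratios were 0.27, -0.09, -0.27, 0.27 and -0.04 in controls and -0.45, -0.52, -0.52, -0.28 and -0.39 in hypothyroid liver. Here too the groups did not overlap, and the change was -0.46 (SE 0.11, limma adjusted p = 0.30).

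P4hb, the beta subunit of prolyl 4-hydroxylase and a protein disulphide isomerase, was higher in every hypothyroid liver. Its control ratios were 0.15, 0.47, 0.49, -0.12 and 0.50 and its hypothyroid ratios 0.78, 0.57, 0.85, 0.56 and 0.81. The change was 0.42 (SE 0.13, limma adjusted p = 0.492), and 0.31 without control 616. Loxl1, a cross-linking lysyl oxidase, changed by -0.55 (SE 0.24, limma adjusted p = 0.66), and by -0.31 without control 616, and its groups overlapped. P4ha1 and P4ha2, the catalytic partners of P4hb, changed by -0.33 and -0.67, and by 0.02 and -0.14 without control 616. Serpinh1, the collagen chaperone of the endoplasmic reticulum, changed by -0.63 and by -0.25.

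**Figure D4:**
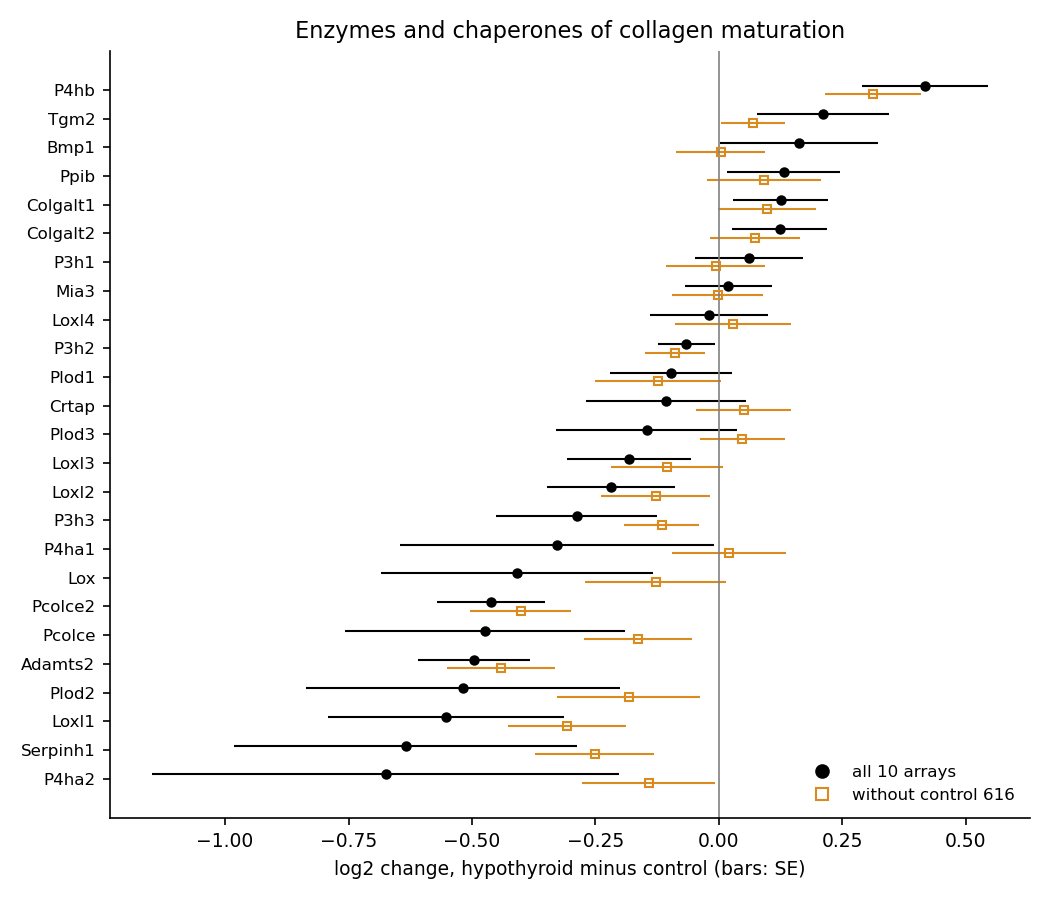
Log2 change, hypothyroid minus control (horizontal axis), with its limma SE (bars), of the 25 tested genes of collagen maturation over all 10 arrays (black circles) and without control 616 (open squares). Adamts2 and Pcolce2 stay near -0.4 and P4hb near 0.3 when control 616 is left out, while P4ha2, Serpinh1 and Plod2 move towards 0.

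Lists of other genes that act around collagen were read in the same way. In the breakdown list (matrix metalloproteinases, their inhibitors and cathepsin K) 0 of 14 genes had an unadjusted p below 0.05 by limma, and the median change was -0.13, or -0.02 without control 616. Of 22 collagen-binding matrix genes 18 had a mean change below 0, as had 17235 of all 32056 probes. Without control 616 it was 15 of the 22, beside 16262 of the 32056 probes. The unadjusted p was below 0.05 for 2 of the 18, beside 4.08% of all probes. Both were small leucine-rich proteoglycans that regulate fibril assembly, and both were without overlap between groups, as were 1.01% of all probes. Lum changed by -0.77 (SE 0.22, limma adjusted p = 0.45) and Ogn by -0.62 (SE 0.27, limma adjusted p = 0.661), or by -0.55 and -0.33 without control 616. Of 5 collagen receptor genes tested 1 was lower at an unadjusted p below 0.05, Itga11, the integrin chain for fibrillar collagen on fibroblasts, by -0.44 (SE 0.12, limma adjusted p = 0.381). Of 13 profibrotic signal genes 1 was lower at that limit, Ccn2 (connective tissue growth factor), by -0.79 (SE 0.30, limma adjusted p = 0.62).

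Markers of the cells that the tissue could hold were read on the same arrays, and their counts at an unadjusted p below 0.05 stand beside 4.08% of all probes lower and 3.34% higher. Without control 616 these shares were 3.92% and 3.43%. All 9 hepatocyte markers tested were well above background on every array, and 2 of them, Alb and Tat, were higher at an unadjusted p below 0.05, with a median change of 0.61 over the list, or 0.34 without control 616. With that array left out 1 of them, Tat, was higher at that limit. The mean ratio of the hepatic stellate cell list, of which 12 of 12 genes were tested, was between 1.17 and 1.47 on control arrays and between 1.22 and 1.45 on hypothyroid arrays, and its median change was 0.01, with 1 gene, Reln, higher at an unadjusted p below 0.05. Without control 616 it was 0 genes. For the list of activated stellate cells and myofibroblasts 1 of 5 genes, Cnn1, was lower at an unadjusted p below 0.05, and the median change was -0.50, or -0.12 without control 616. Of 10 markers of portal fibroblasts and mesothelium 9 had a mean change below 0, as had 17235 of all 32056 probes. Without control 616 this held for 6 of the 10, beside 16262 of the 32056 probes. Their median change went from -0.23 to -0.07. At an unadjusted p below 0.05, 3 of the markers were lower, or 4 without control 616. Among them Mfap4, a microfibril protein, changed by -0.79 (SE 0.21, limma adjusted p = 0.376). In sinusoidal endothelium 1 of 8 was lower at that limit, Fcgr2b, by -0.45 (SE 0.09, limma adjusted p = 0.171). Kupffer cell and biliary lists had 0 genes of 6 and 0 of 5 at an unadjusted p below 0.05 by limma, and 0 of 5 erythroid genes. Of 9 skeletal muscle genes 2 were lower at that limit.

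RNA of exocrine pancreas, which lies beside the liver, was unequal among the controls, and 7 of 8 of its genes were lower in hypothyroid liver at an unadjusted p below 0.05, beside 4.08% of all probes. The mean ratio of the list was 4.10, 4.24 and 2.56 on controls 832, 522 and 616, 0.79 and 0.77 on controls 881 and 391, and between 0.61 and 0.78 on the hypothyroid arrays. Amy2a5 was the member not called, and every gene of the list was well above background on at least 1 array. Col5a3 was at -0.71 and -0.73 on the 2 controls with the low list means and at -0.71, -1.09 and -0.11 on controls 832, 522 and 616. The part of this RNA in the values of the collagens was not tested.

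MiR-29 is a family of miRNAs known to repress collagen mRNAs, and its 3 forms were measured by TLDA. The mature sequences from RefSeq (GRCm38.p6) are shown 5′ to 3′ because all share 1 seed, bases 2 to 8, which is in capitals.
miR-29a: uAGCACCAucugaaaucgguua
miR-29b: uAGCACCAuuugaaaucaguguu
miR-29c: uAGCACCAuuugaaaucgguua
Levels are given as minus delta Ct against U6, in cycles, and a value nearer to 0 stands for more miRNA. MiR-29a was at -5.20, -4.66, -3.96 and -4.64 in control livers and at -4.31, -4.48, -4.16 and -4.06 in hypothyroid livers. For miR-29b the levels were -11.98, -11.26, -10.98 and -11.30 in controls and -10.96, -10.95, -11.14 and -11.11 in hypothyroid livers. MiR-29c was at -6.21, -6.07, -5.33 and -5.98, and at -5.63, -5.67, -4.87 and -5.06. In each of the 3 forms the groups overlapped over all livers, with the hypothyroid values in the upper part. The labels divide the cards into 2 studies, study 1 with the first pair of values listed for a group and study 2 with the last pair. Within study 1 the hypothyroid values were above the controls for all 3 forms, by 0.54, 0.66 and 0.48. Within study 2 this was so for miR-29c alone, by 0.69, while miR-29a and miR-29b overlapped, with differences of 0.19 and 0.02. Of 498 miRNAs read in every liver, 5.62% were higher without overlap within both studies. With study as a block the changes were as large, and the limma adjusted p was 0.656 for each. The changes were 0.36 (SE 0.30), 0.34 (SE 0.27) and 0.59 (SE 0.31) log2 units, each with a limma adjusted p of 0.69 over 563 miRNAs, of which 0% passed at an adjusted p below 0.05 and 3.91% (22 miRNAs) had an unadjusted p below 0.05. When the mean of the 234 miRNAs that were below 35 cycles in every liver replaced U6, the changes were 0.04, 0.02 and 0.27. The study describes the arrays as made from livers of the same mice, but no label pairs a TLDA animal with an array, so the levels were not set against collagen ratios.

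**Figure D5:**
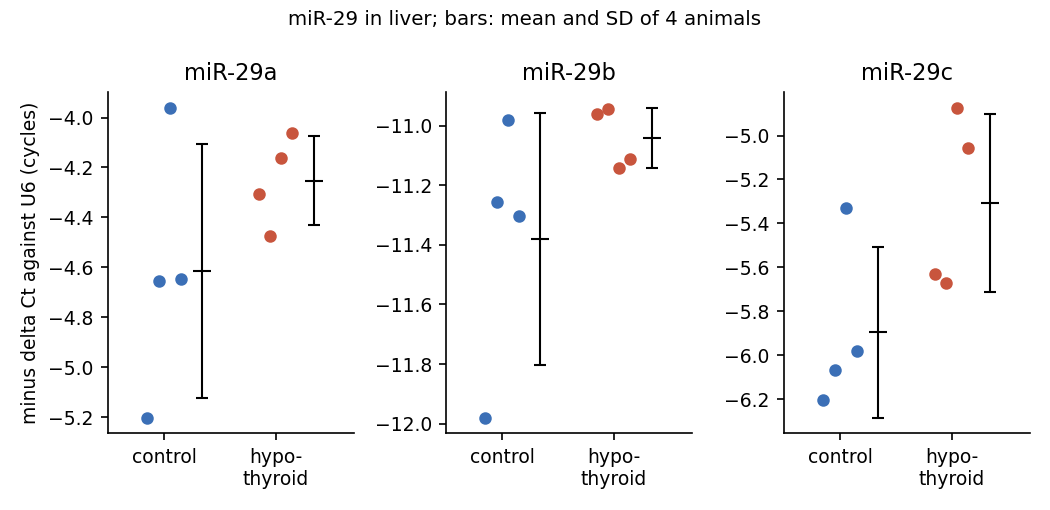
Minus delta Ct against U6 in cycles (vertical axes, scaled separately for each miRNA) of miR-29a, miR-29b and miR-29c in 4 control and 4 hypothyroid livers; bars give the mean and SD of 4 animals. The groups overlap in each panel over both studies, and the mean is higher in hypothyroid liver by 0.36, 0.34 and 0.59.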

How the data were processed

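Agilent 2-colour arrays were read for 5 control and 5 hypothyroid livers. The authors deposited scanner output with median and processed signal intensities, which were not normalized between arrays. Median intensities were background-corrected by normexp (offset 50) and loess-normalized (span 0.2), and spots of the same probe were averaged after control and outlier spots had been dropped. Liver was taken as Cy5 except on slide 141, where the channels were exchanged. Probes above the 5% trimmed mean plus 3 trimmed SDs of 153 negative control spots in 4 of 5 arrays of a group were tested by limma 3.58.1 in R 4.3.3 (with statmod 1.5.0 and version 1.17.8 of data.table), with Benjamini-Hochberg adjustment over 32056 of 41174 probes. Each gene is given by its brightest tested probe. Accessions were named through RefSeq (GRCm38.p6, 23374 probes). For the TLDA the authors deposited threshold cycles (a score here) and delta Ct against U6, on a log2 scale, and minus delta Ct was tested by limma over miRNAs with at least 2 values in each group. A table of their own comparison was not used. The Fs test was written anew with 100 residual shuffles pooled over probes, and is not the program the study used. The number of arrays limits the precision. Each array is 1 pup, and slides were scanned as units. The programs were tested on simulated data. The members, classes and gene lists were chosen with earlier results of these data known, and the named genes are types I, III, IV (alpha1, alpha2), V, VI, XIV, XV and XVIII, any other chain with an unadjusted p below 0.05 or without overlap, Dio1, Thrsp, Me1, maturation genes past the same limits and miR-29. Lum, Ogn, Itga11, Ccn2, Cnn1, Mfap4, Fcgr2b, Alb, Tat, Reln, P4ha1, P4ha2, Serpinh1, Plod2, Col2a1, Col8a1, Col9a2, Col13a1, Col16a1 and the rest of the chains named were taken outside that rule, after their values were seen. Alternatives were no background correction, processed signals, median centring, a span of 0.3, testing all probes or those above the limit on 10 of 10 arrays, slide as a block, the Fs test, averaged probes, dyes as labelled, and arrays or animals left out.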

Additional observations from a re-analysis of the deposited data

Results flagged for a closer look

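Of 36 group and gene combinations checked, 4 held a value far from the others of its group, where chance gives about 1 in 20. Control 616 was the highest control for Col1a1, Col1a2 and Col6a1, with a gap to the next array of 0.717, 0.848 and 0.905 of the group's range. Control 522 was the highest control for Col4a3, with a gap of 0.871 of the range.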

How the results depend on the processing

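The count of 0 collagen genes at an adjusted p below 0.05 was the same in all settings but 1: it was 1 without control 616, which leaves a range of 0 to 1 over arrays left out in turn. Genes higher at an unadjusted p below 0.05 numbered 1 to 2 over arrays left out (2 without control 832 or 522) and 0 with the dyes as labelled. Genes lower numbered 1 to 6 over arrays left out (1 without hypothyroid 626), 1 with processed signals or slide as a fixed block, 0 with median centring or the dyes as labelled, and 2 without slide 141 or, in a setting chosen after seeing the data, without slide 141 and control 616. Apart from the setting without control 616, shares of all probes are not given beside these counts. The class medians, over arrays left out, ran from -0.0666 to -0.0139 for fibrillar, from -0.174 to -0.0460 for basement membrane (the highest without control 616) and from -0.103 to -0.0517 for other chains. The fibrillar median was -0.35 in the Fs test, which needs a value on every array and so read the second Col2a1 probe. Median centring, which moved the median of all probes from -0.01 to 0.09, gave 0.00035 for basement membrane and -0.0176 for other chains. The other chains were at -0.0323 with probes averaged, -0.0157 with the dyes as labelled and -0.0262 without slide 141 and control 616, and the basement membrane chains at -0.0404 and -0.0379 in the last pair of settings. Direction turned for Col6a2 (0.13 with median centring, 0.0961 without slide 141 and control 616, and from -0.176 to 0.0642 over arrays left out, the highest without control 616), for Col14a1 (-0.0173 with slide as a fixed block, -0.0138 without slide 141 and control 616, and from -0.102 to 0.15 over arrays left out), for Col4a2 (-0.00522 with probes averaged, from -0.0122 to 0.101 over arrays left out) and for Col4a1 (from -0.0197 to 0.159). Causes were not tested. Col5a3 was higher in all settings, from 0.34 to 0.84, and from 0.54 to 0.78 over arrays left out, with limma adjusted p values from 0.017 to 1. MiR-29a, miR-29b and miR-29c ranged from 0.17 to 0.58, from 0.14 to 0.47 and from 0.44 to 0.78 over animals left out. Equal numbers did not pair the TLDA animals (deviations correlated at 0.109, 0.0162, 0.247 and -0.408), and with the replicate block the changes of miR-29a, miR-29b and miR-29c were 0.36, 0.34 and 0.59, with limma adjusted p values of 0.749. Dim probes such as those of Col4a3 and Col15a1 lie near background, which limits what they can show.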
